A study of Mus musculus with 20 samples.

Results

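In all, 10 genes for enzymes that turn arachidonic acid into signalling lipids were followed through sorted cells of mouse mammary tumours: Alox15, Alox12 and Alox5 (lipoxygenases), Alox5ap and Ltc4s (leukotriene synthesis), and Ptgs1, Ptgs2, Ptges, Ptgis and Hpgds (prostanoid synthesis). The 10 genes are a list of names out of the 52783 genes of the count table, and all 10 were found there. Alox15 and Ptgis entered the list because the study had selected both on the difference between CD45+ cells of the 2 tumours, and the other 8 were chosen by name, with earlier results of these data known, as enzymes of the same routes.

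The data are 20 RNA-seq libraries from 10 female BALB/cJ mice, aged 8 to 12 weeks, whose mammary fat pad had been injected with 1000000 cells of either 66cl4 or 67NR. Both lines belong to the 4T1 mouse breast cancer model: 66cl4 tumours metastasise, 67NR tumours do not, and each line stands for its metastatic class alone. Tumours were taken 21 to 26 days after injection, dissociated, and sorted on CD45, the pan-leukocyte surface protein, so that every animal gave 1 CD45+ (immune) and 1 CD45- (non-immune) library. There were 5 libraries in each of the 4 groups, named 66cl4 CD45+, 66cl4 CD45-, 67NR CD45+ and 67NR CD45-, and the labels give no further treatment or allele. The CD45- gate holds the injected cells together with host stroma, and no library holds untreated mammary tissue.

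Library totals were 12960000 to 28080314 counts. Ptprc, which encodes CD45, was 15890 to 28449 normalised counts in the CD45+ libraries and 10.6 to 473 in the CD45- libraries, so the gates did not overlap. The labels of 66cl4 animals 5 and 6 contradict themselves, the sample title naming 1 gate and the cell type field the other. Ptprc followed the title: it was 17697 and 20442 in the libraries titled CD45+ and 138 and 40.4 in those titled CD45-. The titles were used, and leaving out the 4 libraries of these animals changed no call of a listed enzyme. The CD45- libraries held 8 of 8 fibroblast markers at a mean of at least 10 in both tumours. Epithelial markers reached sums of 6060 to 6846 in CD45- cells of 66cl4 tumours but 130 to 398 in those of 67NR tumours, so the latter carried little of the epithelial programme of a mammary carcinoma.

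Arachidonic acid is cut from membrane phospholipids and then follows 1 of 2 main routes. Lipoxygenases add oxygen to it: the product of Alox5, helped by the membrane protein that Alox5ap encodes (FLAP), makes the precursor of the leukotrienes, which Ltc4s joins to glutathione to give the cysteinyl leukotrienes. The cyclooxygenases encoded by Ptgs1 (largely constitutive) and Ptgs2 (inducible) make prostaglandin H, from which terminal synthases make prostaglandin E (Ptges), prostacyclin (Ptgis) or prostaglandin D (Hpgds). In tumours these lipids are known as signals between cancer cells, stroma and leukocytes.

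Results below turn on the 2 cyclooxygenases and on Ptges, so the start regions of these 3 genes are shown. Each runs 250 bases before to 50 bases after the RefSeq start (build GRCm38.p6), on the strand of the gene. Capitals mark matches, on either strand, to TATAAA (the TATA box), TGACGTCA (the cyclic AMP response element), CGTCA (its core), CACGTG (the E box), GGGCGG (the GC box) or CCAAT (the CCAAT box).
Ptgs2, chr1:150099781-150100080, plus strand: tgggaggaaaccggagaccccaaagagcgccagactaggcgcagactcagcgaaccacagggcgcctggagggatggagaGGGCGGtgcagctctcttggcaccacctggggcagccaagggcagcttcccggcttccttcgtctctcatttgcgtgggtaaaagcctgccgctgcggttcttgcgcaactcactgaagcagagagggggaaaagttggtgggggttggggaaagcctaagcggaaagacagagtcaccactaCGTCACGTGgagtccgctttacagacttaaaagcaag
Ptgs1, chr2:36230176-36230475, plus strand: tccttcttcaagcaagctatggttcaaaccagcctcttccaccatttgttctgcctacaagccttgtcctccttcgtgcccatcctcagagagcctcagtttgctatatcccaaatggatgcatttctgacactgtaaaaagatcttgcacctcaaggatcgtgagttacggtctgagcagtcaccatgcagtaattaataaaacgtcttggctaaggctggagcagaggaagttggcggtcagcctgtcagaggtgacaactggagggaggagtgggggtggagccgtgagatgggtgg
Ptges, chr2:30903248-30903547, minus strand: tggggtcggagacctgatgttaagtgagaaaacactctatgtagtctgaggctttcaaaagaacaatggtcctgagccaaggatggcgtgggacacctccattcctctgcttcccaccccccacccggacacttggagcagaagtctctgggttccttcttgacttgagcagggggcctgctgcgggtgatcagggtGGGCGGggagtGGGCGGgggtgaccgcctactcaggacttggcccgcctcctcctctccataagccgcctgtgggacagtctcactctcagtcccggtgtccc
The Ptgs2 window held 1 GGGCGG, and just after the start a CGTCA match that overlaps a CACGTG match. Of 32851 RefSeq promoters of this length, 20.8% held CGTCA, 7.15% held CACGTG and 35.7% held GGGCGG. The TATA box was in 13.6%, the full cyclic AMP element in 1.79% and the CCAAT box in 37.4%. The Ptgs1 window held none of the 6 motifs and the Ptges window held 2 copies of GGGCGG. These are matches of letters and nothing in these data measures binding. RefSeq windows were matched for 7 of the 10 genes.

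Levels below are estimated counts divided by DESeq2 size factors (normalised counts), given for animals 3, 4, 5, 6 and 7 of 66cl4 and animals 1, 4, 5, 6 and 7 of 67NR, in that order. Differences are edgeR log2 fold changes, and a gene was called when its adjusted p was under 0.05 and its log2 fold change was beyond 1 in either direction. In bulk libraries, fewer cells of a type and less RNA per cell cannot be told apart. Comparisons that share a group share its libraries.

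The enzymes split by gate. In 66cl4 tumours, 5 of the 9 fitted passed the limits upwards in CD45+ cells (Alox15, Alox5, Alox5ap, Ltc4s and Hpgds) and 3 downwards (Ptgs1, Ptges and Ptgis). Alox15 and Ptgis had been selected on these CD45+ libraries, so their gate values are a description. Without them 4 of 7 were higher and 2 lower, and 6 did not overlap. Of 14916 genes tested there, 23.9% were called higher and 20.5% lower, and 61.4% did not overlap between the groups, against 8 of the 9 enzymes. In 67NR tumours 6 of 8 were higher in CD45+ cells, with Ptgs2 added, and 2 were lower (Ptgs1 and Ptges), or 5 and 2 of 7 without Alox15, where 20.2% of 15063 genes were called higher, 19.6% lower and 55.5% did not overlap. None of those 8 overlapped between the gates, which leaves 7 of 7 without Alox15. The median log2 fold change of the tested enzymes was 2.13 in 66cl4 and 2.91 in 67NR, against 0.00308 and -0.05 over all genes. These medians include Alox15 and, in 66cl4, Ptgis.

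Between the CD45- cells of the 2 tumours, whose libraries the study had not used to select Alox15 and Ptgis, 4 of 8 tested enzymes were higher in 66cl4 (Ptgs2, Ptges, Ptgis and Ltc4s) and 3 were lower (Alox5ap, Hpgds and Alox5). Of 14844 genes tested, 13.2% were called higher, 18.9% lower, and 52.9% did not overlap, against 7 of the 8 enzymes. The median log2 fold change of the 8 was 0.17, against -0.01 over all genes, since the calls went both ways.

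Between CD45+ cells the values are a description, with no test, because this comparison chose Alox15 and Ptgis. Of 8 enzymes fitted, 3 passed the call limits upwards in 66cl4 (Alox15, Ptgs2 and Alox5) and 1 downwards (Hpgds), and 5 did not overlap. Without Alox15, 2 of 7 passed upwards and 1 downwards, and 4 did not overlap. Over 14676 genes, 5.01% passed upwards, 6.82% downwards and 15.1% did not overlap. The median log2 fold change was 0.87 for the 8 enzymes, Alox15 included, and 0.01 for all genes.

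**Figure D1:**
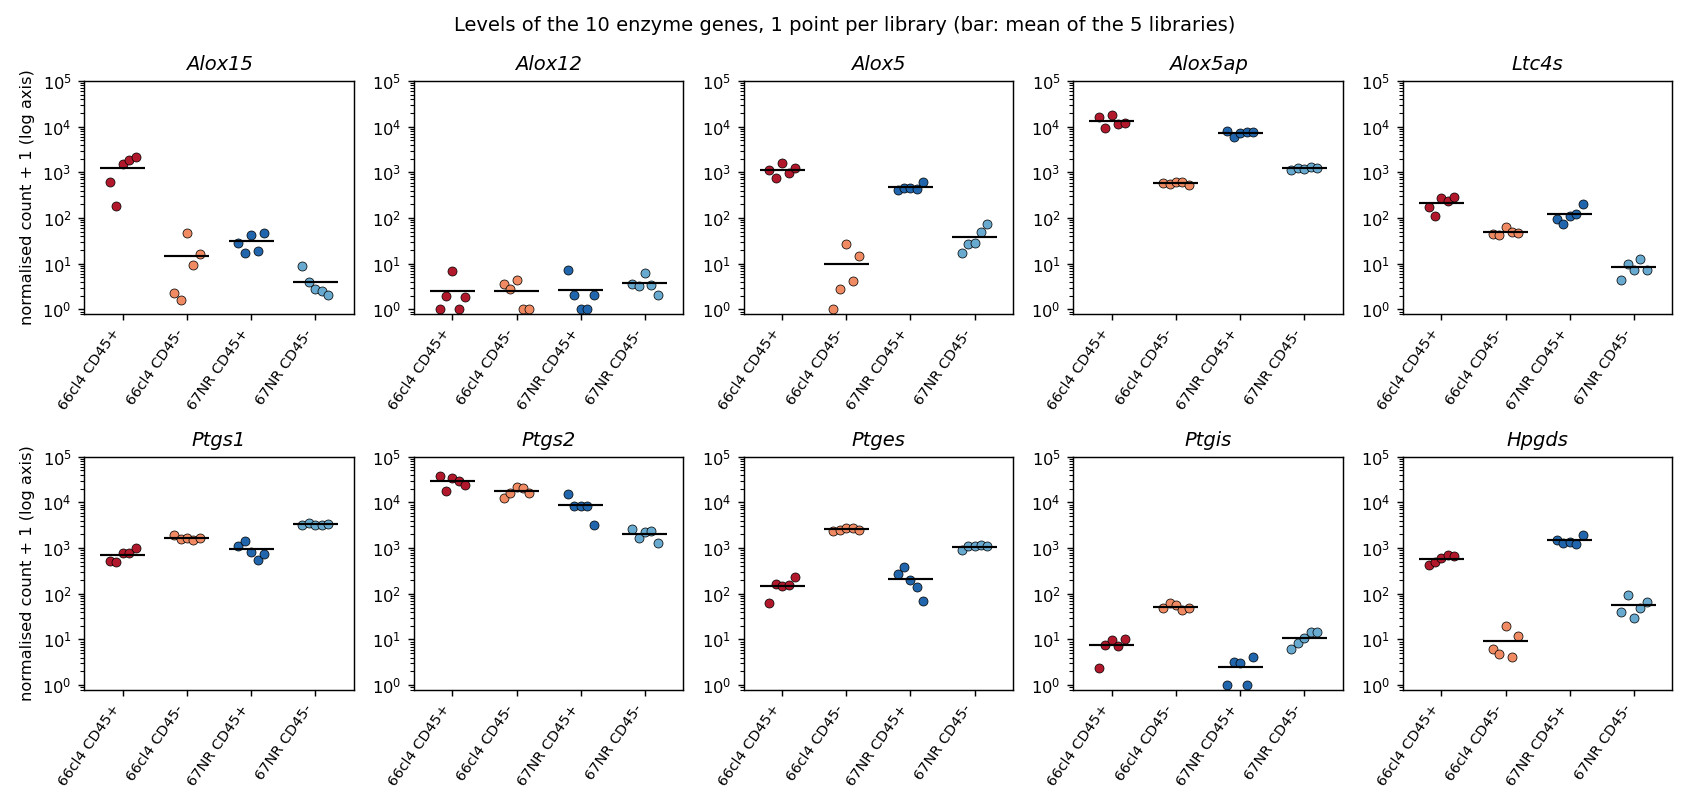
Normalised counts plus 1 (log axis) of the 10 enzyme genes, 1 point per library, in the 4 groups. Bars are means of 5 libraries. Alox5, Alox5ap and Hpgds stand highest in both CD45+ groups, Ptges in both CD45- groups, and Alox15 in 66cl4 CD45+ cells, where it spans 183 to 2186.

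**Figure D2:**
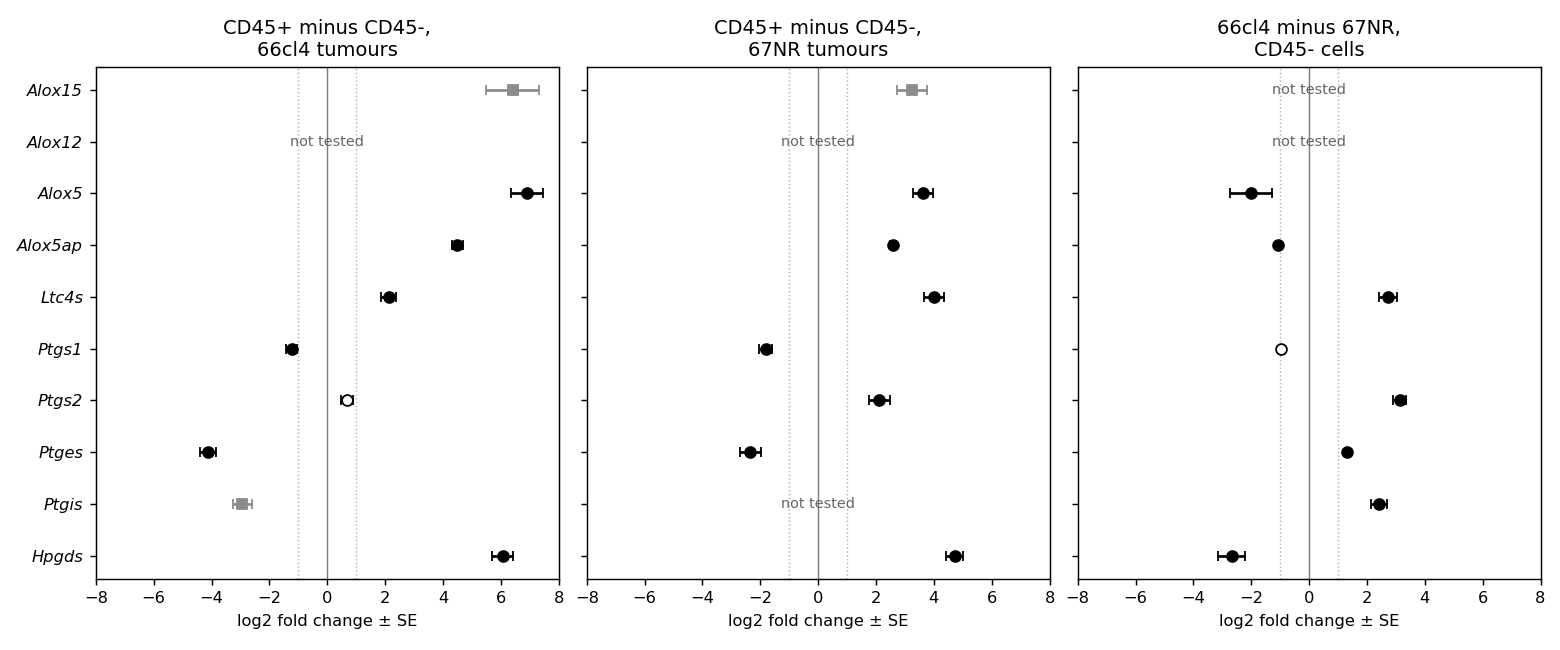
Log2 fold changes ± SE from edgeR for 3 comparisons (columns). Filled circles were called, open circles were not, grey squares are values given without a test, and dotted lines mark a log2 fold change of 1 in either direction. Ptgs1 and Ptges lie left of 0 in both gate comparisons, and Ptgs2 at 3.13 is the rightmost point between CD45- cells.

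Alox15 encodes the leukocyte-type lipoxygenase, which in mice is known from resident peritoneal macrophages and eosinophils. In 66cl4 CD45+ cells it was 604, 183, 1494, 1821 and 2186 normalised counts, and in 67NR CD45+ cells 28.1, 16.5, 41.7, 18.0 and 46.3. The lowest 66cl4 library was above the highest 67NR library, with means of 1257 ± 840 and 30.1 ± 13.5 (SD, n = 5) and a log2 fold change of 5.38 (SE 0.676). Animals 3 and 4 were well below the other 3 animals with 66cl4 tumours. In CD45- cells it was 1.33, 0.623, 45.0, 8.50 and 15 in 66cl4 and 7.90, 3.0, 1.76, 1.56 and 1.02 in 67NR, so the groups overlapped. The low-count filter left it out of the edgeR test between CD45- cells. A fit with no such filter put the tumour difference at 2.24 on the log2 scale (adjusted p = 0.115), and DESeq2 put it at 2.23 (adjusted p = 0.0366). The CD45+ libraries stood above the CD45- libraries by a log2 fold change of 6.41 (SE 0.907) in 66cl4 and 3.24 (SE 0.513) in 67NR, given without a test.

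Some marker lists differed between the CD45+ groups in the same direction as Alox15. The 7 serous cavity macrophage markers summed to 2689 to 4567 with 66cl4 and 904 to 1170 with 67NR, mostly through F5 (1630 to 3641 against 114 to 356). Gata6, the defining factor of those cells, was at 3 or fewer counts before normalisation in every 67NR CD45+ library. It did not reach a mean of 10 normalised counts in 66cl4. The 7 eosinophil markers summed to 168 to 320 and 152 to 744, and Epx, Prg2, Prg3 and Ear6, which encode granule proteins, were at or near 0 in 66cl4 CD45+ cells. The 10 neutrophil markers summed to 44355 to 125374 in 66cl4 and 7225 to 52470 in 67NR. Within 66cl4 the order of animals in the neutrophil and serous cavity macrophage lists was not that of Alox15. Animal 7, highest in Alox15, held the lowest neutrophil sum (44355), and animal 6, next in Alox15, the lowest serous cavity macrophage sum (2689). The 9 macrophage markers shared the extremes of Alox15, lowest in animal 4 (57095) and highest in animal 7 (90632), but not the order between. Their sums were lower than in 67NR CD45+ cells (100248 to 154502). The part of these lists in the Alox15 values was not tested.

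Alox12, the platelet-type lipoxygenase, was at most 6.24 normalised counts in any library. It was too low for the edgeR test in any comparison, so no difference was detectable at this depth. Its relative Alox15 lies on the same chromosome, and reads common to both genes could have been split between them by the estimation of counts.

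Alox5 makes the first leukotriene precursor. It was 1154, 771, 1588, 953 and 1265 in 66cl4 CD45+ cells and 401, 443, 465, 425 and 616 in 67NR CD45+ cells. The groups did not overlap, with means of 1146 ± 311 and 470 ± 85.0 (SD, n = 5) and a log2 fold change of 1.3 (SE 0.180). In CD45- cells it was 0, 1.87, 25.8, 3.19 and 14.0 in 66cl4 and 15.8, 25.5, 28.1, 49.2 and 72.6 in 67NR. Here the order of the tumours turned: Alox5 was lower in 66cl4 CD45- cells by a log2 fold change of -2.0 (SE 0.722, adjusted p = 0.0275), although the groups overlapped through animal 5. This call was lost in 5 of 17 alternatives, over which the adjusted p ran from 0.00321 to 0.0929. It was lost without 66cl4 CD45- animal 4 or 6 (-1.69 and -1.79) and without 67NR CD45- animal 6 or 7 (-1.90 and -1.64).

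In the 67NR CD45- libraries the 7 mast cell markers summed to 593, 671, 5134, 6587 and 18704, the same order of animals as Alox5. In 66cl4 CD45- cells they summed to 18.6 to 77.9. Mast cells are a known site of Alox5, and the part of the mast cell transcripts in the Alox5 values was not tested. Between the gates Alox5 was higher in CD45+ cells by a log2 fold change of 6.90 (SE 0.562, adjusted p = 4.14e-07) in 66cl4 and of 3.63 (SE 0.343, adjusted p = 3.37e-06) in 67NR.

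Alox5ap, whose product hands arachidonic acid to the Alox5 enzyme, had the highest level per transcript length of the 10 genes in both CD45+ groups, 1534 ± 396 TPM in 66cl4 and 853 ± 91.2 TPM in 67NR (SD, n = 5). The ratio of Alox5ap to Alox5 in TPM in CD45+ cells had a median of 45.8 (36.3 to 54.5) for 66cl4 tumours and 59.7 (48.2 to 77.8) for 67NR tumours, so the ranges overlapped. In normalised counts Alox5ap was 16520, 9282, 17927, 11460 and 12071 in 66cl4 CD45+ cells and 8194, 6016, 7298, 7538 and 7804 in 67NR CD45+ cells. The 66cl4 libraries were all higher, by a log2 fold change of 0.88 (SE 0.179), under the call limit.

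Alox5ap did not stop at the gate. It was 579, 552, 620, 621 and 529 in 66cl4 CD45- cells and 1155, 1252, 1194, 1341 and 1254 in 67NR CD45- cells, with little spread within either group. These means were 4.31% and 16.8% of the CD45+ means of the same tumour. For 6 leukocyte markers the corresponding share ran from 0.322% to 1.99% in 66cl4 and reached 4.60% in 67NR, below Alox5ap in both. Other lists reached higher: 7 mast cell markers stood at 19.6% to 35.1% in 67NR, all above Alox5ap, and at 0.637% to 5.80% in 66cl4, a range that holds it. These shares are of group means. In the 67NR CD45- libraries the mast cell sums ran from 593 in animal 1 to 18704 in animal 7. The part of mast cell transcripts in these Alox5ap values was not tested. In CD45- cells Alox5ap was lower in 66cl4 by a log2 fold change of -1.06 (SE 0.0788, adjusted p = 3.87e-08), whereas in CD45+ cells the 66cl4 libraries were the higher ones. Whether these 2 differences differ was not tested. Gm19719, an antisense gene, shares 189 exon bases with Alox5ap. Since the use of strand in counting is not stated in the sources used here, reads of the 2 genes from that shared stretch cannot be told apart.

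**Figure D3:**
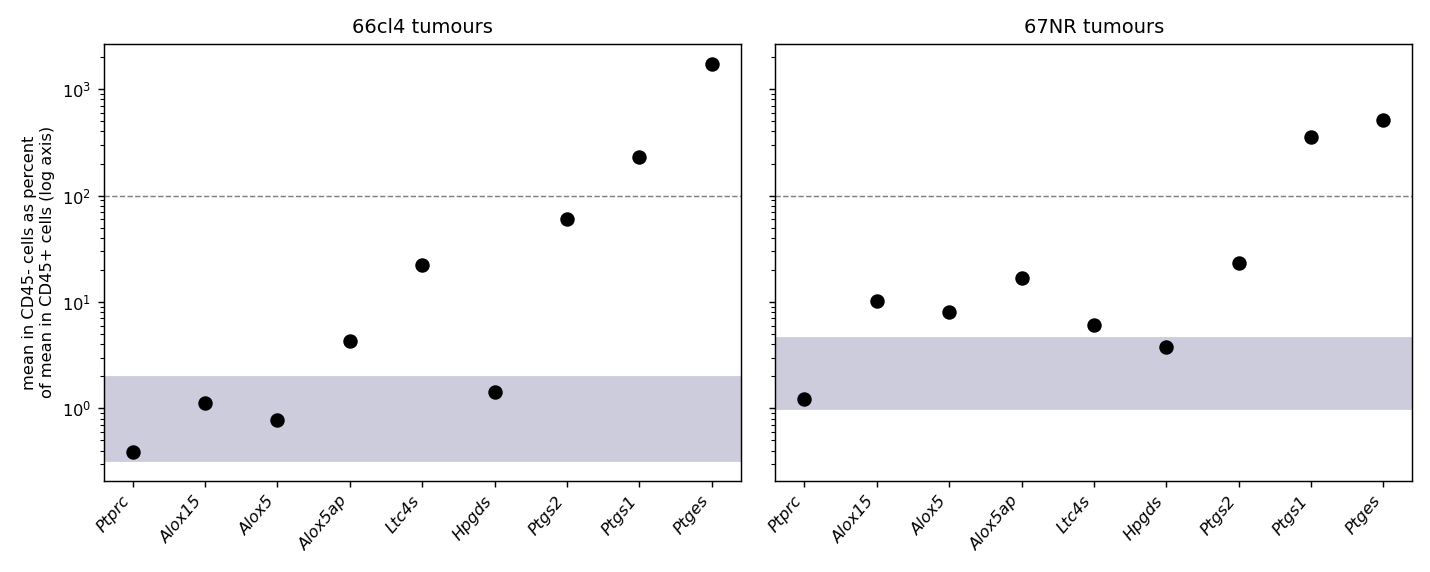
Mean in CD45- cells as a percent of the mean in CD45+ cells (log axis) for Ptprc and 8 enzymes in each tumour. The band is the range of 6 leukocyte markers, which include no mast cell marker, and the dashed line is 100%. In 66cl4 Alox15, Alox5 and Hpgds lie within the band (0.322% to 1.99%) and Alox5ap, Ltc4s and Ptgs2 above it. In 67NR only Hpgds and Ptprc of those plotted lie within it.

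Ltc4s, the leukotriene C synthase, was 171, 112, 279, 235 and 287 in 66cl4 CD45+ cells and 92.1, 73.6, 110, 122 and 204 in 67NR CD45+ cells, so these groups overlapped. In CD45- cells it was 43.8, 41.1, 63.3, 47.8 and 45.9 in 66cl4 against 3.51, 9.0, 6.15, 11.7 and 6.14 in 67NR. Every 66cl4 CD45- library was above every 67NR CD45- library, by a log2 fold change of 2.73 (SE 0.295, adjusted p = 1.86e-06). The CD45- mean was 22.3% of the CD45+ mean in 66cl4, above the highest leukocyte marker at 1.99%, and 6.07% in 67NR, where that marker stood at 4.60%. The 7 mast cell markers reached 5.80% in 66cl4, below Ltc4s, and stood at 19.6% to 35.1% in 67NR, all above it, and their part in these values was not tested. The 67NR shares are of means over CD45- libraries whose mast cell sums ran from 593 to 18704. Its gate difference was a log2 fold change of 2.13 (SE 0.256, adjusted p = 8.01e-06) in 66cl4 and 3.99 (SE 0.353, adjusted p = 1.66e-06) in 67NR. Ltc4s shares 268 exon bases with the antisense gene Gm26542.

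Ptgs2, the inducible cyclooxygenase, separated the tumours in both gates. In CD45- cells it was 12302, 16162, 21895, 20892 and 15773 in 66cl4 and 2607, 1636, 2265, 2366 and 1315 in 67NR. The means were 17405 ± 3955 and 2038 ± 540 (SD, n = 5), 8.54 times as high in 66cl4, and the log2 fold change was 3.13 (SE 0.214, adjusted p = 3.89e-08). In CD45+ cells it was 37821, 17848, 34272, 29389 and 24607 in 66cl4 and 15444, 8470, 8480, 8466 and 3183 in 67NR, a log2 fold change of 1.70 (SE 0.363). The lowest 66cl4 library was above the highest 67NR library in each gate. The highest and the lowest 67NR CD45+ libraries, of animals 1 and 7, also held the highest and the lowest sums of neutrophil markers, 52470 and 7225. In 66cl4 CD45+ cells the extremes did not match. Ptgs2 was highest in animal 3 and lowest in animal 4, and the neutrophil sum highest in animal 5 (125374) and lowest in animal 7 (44355). The part of neutrophils in the Ptgs2 values was not tested.

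Between the gates, Ptgs2 was higher in CD45+ cells of 67NR tumours by a log2 fold change of 2.12 (SE 0.360, adjusted p = 0.000296). In 66cl4 the groups overlapped, and the log2 fold change of 0.69 (SE 0.212, adjusted p = 0.0107) stayed under the limit for a call in all 17 alternatives. Within each 66cl4 animal CD45+ was nevertheless higher, by 1.10 to 3.07 times.

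Ptgs1, the constitutive cyclooxygenase, ran the other way. It was 1909, 1587, 1689, 1490 and 1626 in 66cl4 CD45- cells and 3251, 3553, 3251, 3125 and 3417 in 67NR CD45- cells. The groups did not overlap, but the log2 fold change of -0.97 (SE 0.0829, adjusted p = 1.69e-07) was just under the limit. It passed that limit, at -1.01, without 66cl4 CD45- animal 3. In CD45+ cells Ptgs1 was 520, 496, 790, 767 and 1020 in 66cl4 and 1102, 1454, 829, 545 and 754 in 67NR, and the groups overlapped. Ptgs1 was lower in CD45+ than in CD45- cells in both tumours, by log2 fold changes of -1.23 (SE 0.185, adjusted p = 5.88e-05) in 66cl4 and -1.82 (SE 0.232, adjusted p = 3.55e-05) in 67NR. It shares 148 exon bases with Gm43621 on the opposite strand.

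Per transcript length, the balance of the 2 cyclooxygenases differed among the groups. In 67NR CD45- cells the ratio of Ptgs2 to Ptgs1 in TPM was 0.112 to 0.232, with Ptgs1 the higher gene in each library. In 66cl4 CD45- cells the ratio was 1.87 to 4.06, and in CD45+ cells 6.99 to 21.1 in 66cl4 and 1.22 to 4.50 in 67NR. These ratios restate the levels above and were not tested.

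**Figure D4:**
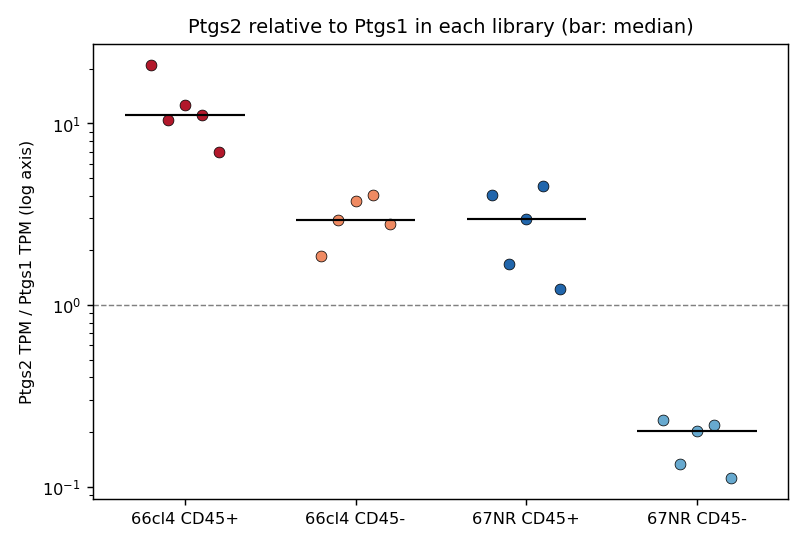
Ratio of Ptgs2 to Ptgs1 in TPM (log axis), 1 point per library, in the 4 groups. Bars are medians and the dashed line is a ratio of 1. The 5 libraries of 67NR CD45- cells (0.112 to 0.232) lie below 1 and the other 15 above it.

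Ptges makes prostaglandin E from the cyclooxygenase product and stood highest in the CD45- cells. It was 2413, 2533, 2695, 2818 and 2510 in 66cl4 CD45- cells and 920, 1095, 1097, 1164 and 1089 in 67NR CD45- cells. Like Ptgs2 it was higher in 66cl4 there, by a log2 fold change of 1.31 (SE 0.0837, adjusted p = 8.27e-09). The other prostaglandin E synthases, named here after their values were seen, were lower in 66cl4 CD45- cells, Ptges2 by a log2 fold change of -1.28 (SE 0.218, adjusted p = 0.000137) and Ptges3 by -0.50 (SE 0.0978, adjusted p = 0.000441), the latter under the limit for a call. In CD45+ cells it was 61.2, 161, 144, 157 and 228 in 66cl4 and 270, 376, 195, 137 and 67.9 in 67NR. The gates differed by log2 fold changes of -4.12 (SE 0.269, adjusted p = 5.80e-08) in 66cl4 and -2.35 (SE 0.366, adjusted p = 0.000158) in 67NR. In the CD45+ libraries 8 fibroblast markers summed to 213, 707, 526, 662 and 1533 in 66cl4 and to 2928, 3835, 1750, 1178 and 905 in 67NR, the same order of animals as Ptges in each tumour. The part of CD45- cells or their RNA in the CD45+ values of Ptges was not tested.

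Ptgis, the prostacyclin synthase, was low everywhere and highest in 66cl4 CD45- cells, at 47.8, 60.5, 56.6, 42.5 and 47.9. In 67NR CD45- cells it was 5.26, 7.50, 9.66, 13.3 and 13.3, all below the lowest 66cl4 library, with a log2 fold change of 2.41 (SE 0.273, adjusted p = 2.84e-06). It was 1.39, 6.69, 8.68, 6.31 and 9.30 in 66cl4 CD45+ cells, a log2 fold change of -2.93 (SE 0.316) against CD45- cells, given without a test. In 67NR CD45+ cells it was 0, 2.20, 2.03, 0 and 3.09, too low for the edgeR test. So the gene that had been selected on CD45+ cells stood higher, in 66cl4, in each animal's CD45- library. It shares 156 exon bases with 1110018N20Rik on the opposite strand.

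Hpgds, the haematopoietic prostaglandin D synthase, is known from mast cells and macrophages and was lower in 66cl4 than in 67NR tumours in both gates. It was 1503, 1261, 1362, 1231 and 1975 in 67NR CD45+ cells and 427, 484, 609, 714 and 663 in 66cl4 CD45+ cells, with means of 1466 ± 304 and 580 ± 121 (SD, n = 5) and no overlap. The log2 fold change was -1.32 (SE 0.168). In the same libraries the 7 mast cell markers summed to 19808 to 27616 in 67NR and 1511 to 4258 in 66cl4, and the 9 macrophage markers to 100248 to 154502 and 57095 to 90632. Their part in the Hpgds values was not tested.

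In CD45- cells Hpgds was 38.6, 95.3, 29.0, 48.4 and 64.4 in 67NR and 5.31, 3.74, 18.3, 3.19 and 11 in 66cl4. It was lower in 66cl4 by a log2 fold change of -2.67 (SE 0.464, adjusted p = 0.000172). These levels were 3.76% and 1.43% of those in CD45+ cells, within the range of the leukocyte markers, and Ptprc was also lower in 66cl4 CD45- cells (log2 fold change -1.79, adjusted p = 0.0361). The 7 mast cell markers stood at 19.6% to 35.1% in 67NR, all above Hpgds, and at 0.637% to 5.80% in 66cl4, a range that holds it. The 67NR shares are of means over CD45- libraries whose mast cell sums ran from 593 to 18704. The part of leukocyte or mast cell transcripts in these Hpgds values was not tested. The gate difference was a log2 fold change of 6.06 (SE 0.365, adjusted p = 2.55e-08) in 66cl4 and 4.72 (SE 0.294, adjusted p = 1.04e-07) in 67NR.

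Set side by side per transcript length, each group had its own order of mean TPM. Neighbours whose libraries overlap are not separated. In 66cl4 CD45+ cells Alox5ap (1534) was followed by Ptgs2 (649), and then by Ptgs1, Alox15, Alox5, Ltc4s, Ptges and Hpgds, each overlapping the next. In 66cl4 CD45- cells the order was Ptgs2 (418), Ptges (241), Ptgs1 (138) and Alox5ap (70.3), with no overlap between neighbours. In 67NR CD45- cells it was Ptgs1 (272), Alox5ap (148), Ptges (98.6) and Ptgs2 (48.1), again with no overlap. In 67NR CD45+ cells Alox5ap (853) stood alone at the top, while Ptgs2 (199) and Ptgs1 (73.9) overlapped. Alox12 had the lowest mean in every group and overlapped its nearest neighbour in each.

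The rest of the pathway was read from a list of 43 other genes: phospholipases, other lipoxygenases, other synthases, transport and breakdown, and receptors. In the 66cl4 gate comparison 14 of 29 tested were higher in CD45+ cells and 7 lower, with edgeR, where 23.9% and 20.5% of all genes were. In 67NR 16 of 31 were higher and 6 lower, against 20.2% and 19.6% of all genes. All 4 tested receptors for leukotrienes and lipoxins were higher in CD45+ cells of each tumour, for example Ltb4r1, a leukotriene B receptor (629 ± 278 against 1.48 ± 1.60 in 66cl4, adjusted p = 3.58e-08), and Cysltr1, a receptor for cysteinyl leukotrienes (4353 ± 593 against 72.0 ± 39.0 in 67NR, adjusted p = 1.12e-07; SD, n = 5). Of the prostanoid receptors tested, 3 of 3 in 66cl4 and 3 of 5 in 67NR were higher in CD45+ cells, among them the prostaglandin E receptors Ptger2 and Ptger4 in both. Ptgfr, the prostaglandin F receptor, was lower in CD45+ cells of 67NR (log2 fold change -3.41). Low counts left the rest of the 9 listed prostanoid receptors untested, so the tested ones do not stand for the class. In 66cl4 the untested Ptger1, Ptger3 and Ptgfr were each lower in CD45+ than in CD45- cells, with no overlap. The untested Ptgdr, Ptgdr2 and Tbxa2r overlapped there. Tbxas1, the thromboxane synthase, was also higher in CD45+ cells, by log2 fold changes of 7.05 in 66cl4 and 4.85 in 67NR.

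Between CD45- cells, 7 of 25 tested pathway genes were higher in 66cl4 and 7 lower, beside 13.2% and 18.9% of all genes. Upstream of the cyclooxygenases, Pla2g4a, the cytosolic phospholipase that frees arachidonic acid, was 3327 ± 315 in 66cl4 and 972 ± 66.8 in 67NR (SD, n = 5), a log2 fold change of 1.81 (SE 0.0884, adjusted p = 5.19e-10). The secreted phospholipase Pla2g5 was higher by 2.90 (SE 0.173, adjusted p = 3.71e-09) and Pla2g6 lower by -1.03 (SE 0.178, adjusted p = 0.000156). Ptgds, the other prostaglandin D synthase, was 1494 ± 298 against 9.18 ± 3.32, a log2 fold change of 7.34 (SE 0.214, adjusted p = 4.72e-12). Thus the 2 prostaglandin D synthases went opposite ways in these cells, Ptgds higher and Hpgds lower in 66cl4. Mgst1 and Mgst2, relatives of Ltc4s and Ptges, were higher by 4.56 (SE 0.203, adjusted p = 4.67e-10) and 4.21 (SE 0.168, adjusted p = 7.40e-11).

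Transport and breakdown differed as well. Abcc4, an exporter of prostaglandins, was higher in 66cl4 CD45- cells by 2.04 (SE 0.119, adjusted p = 3.19e-09) and the uptake carrier Slco2a1 by 1.19 (SE 0.126, adjusted p = 1.51e-06). Hpgd, which inactivates prostaglandin E, was lower by -3.01 (SE 0.542, adjusted p = 0.000223), from 21.1 ± 11 in 67NR to 2.72 ± 1.93 in 66cl4 (SD, n = 5). Ptger4 was lower by -1.67 (SE 0.178, adjusted p = 1.53e-06). Both genes were higher in CD45+ than in CD45- cells, and leukocyte transcripts were also lower in 66cl4 CD45- cells: Ptprc as given above, and the 9 macrophage markers, which summed to 195 to 2293 there and 1610 to 5846 in 67NR. Their part in the Hpgd and Ptger4 values was not tested. Cbr1, a carbonyl reductase that acts on prostaglandins, was lower by -3.14 (SE 0.279, adjusted p = 2.46e-07).

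**Figure D5:**
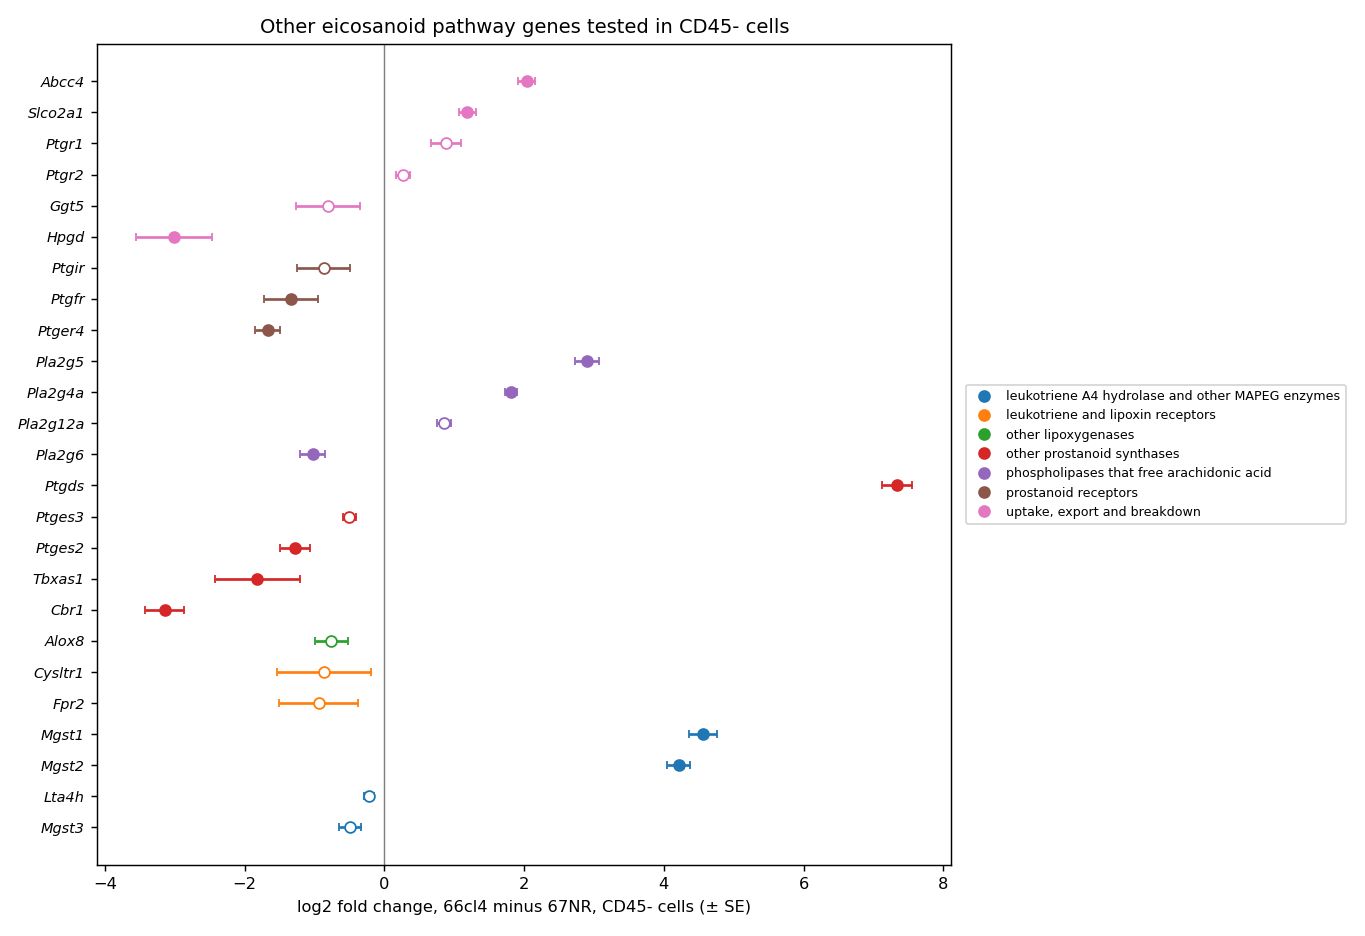
Log2 fold change ± SE, 66cl4 minus 67NR, of the 25 other pathway genes tested in CD45- cells, coloured by role. Filled points were called and open points were not. Ptgds (7.34), Mgst1 (4.56) and Mgst2 (4.21) lie farthest right, and Cbr1 (-3.14) and Hpgd (-3.01) farthest left.

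Between CD45+ cells, 7 of 31 tested pathway genes were higher in 66cl4 and 4 lower, beside 5.01% and 6.82% of all genes. These genes were listed by their role, not for this comparison, though with earlier results known. Cyp4f18, which breaks down leukotriene B, was 1696 ± 749 in 66cl4 and 335 ± 218 in 67NR (SD, n = 5), a log2 fold change of 2.33 (SE 0.472, adjusted p = 0.00621). Ltb4r1 was higher by 1.69 (SE 0.249, adjusted p = 0.000792), Fpr2, a receptor for lipoxin and formyl peptides, by 1.35 (SE 0.214, adjusted p = 0.00124), Ptgir, the prostacyclin receptor, by 1.61 (SE 0.293, adjusted p = 0.00262) and Ptger2 by 1.11 (SE 0.167, adjusted p = 0.000880). Cysltr2 was lower by -1.44 (SE 0.230, adjusted p = 0.00126) and Hpgd by -2.07 (SE 0.349, adjusted p = 0.00167). Neutrophil markers were higher and mast cell markers lower in these 66cl4 libraries, as given above, and their part in these differences was not tested. Ptgds was higher by 5.47 (SE 0.691, adjusted p = 0.000342) at 66.9 ± 32.2 against 1.52 ± 1.62, levels well under the 1494 of 66cl4 CD45- cells. The part of CD45- cells or their RNA in the CD45+ values of Ptgds was not tested.

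The genes whose levels ran most like each enzyme were ranked by Pearson's r of log2(normalised count + 1) over the 20 libraries, among 16453 genes. This is a description, and the 20 points share 4 groups that differ in most genes. Alox15 ran with Ambp (0.949), F7 (0.938) and F5 (0.924), the latter 2 encoding clotting factors. Their CD45+ levels fell on separate sides in the 2 tumours, Ambp at 210 to 502 in 66cl4 against 6.10 to 28.8 in 67NR. F7, like Alox15, had been selected by the study on the difference between CD45+ cells. F5 is the gene that carried most of the serous cavity macrophage sums above. Alox5 ran with Slc7a8 (0.993), Btk and Plau, Alox5ap with Gcnt1 (0.992), Gm2a and Emilin2, and Hpgds with the macrophage genes Ms4a7 (0.994) and Aif1 (0.990) and with P2ry13. Ptges ran with Vgll3 (0.996), Heph and Irx5, Ptgis with Samd12 (0.949), Rbms3 and Cemip, Ptgs1 with Timp2 (0.979), Palm and Etv1, and Ltc4s with Snx8 (0.984), Tubb2a and Cln8. Ptgs2 ran with Retreg1 (0.977), Ptgs2os2 (0.965) and Tbc1d2 (0.964). Ptgs2os2 is named for its place on the strand opposite Ptgs2, and the annotation used here (GENCODE M21) gave no exon of another gene overlapping Ptgs2.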

How the data were processed

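RNA from CD45+ and CD45- cells of each tumour was prepared with the SENSE mRNA-Seq V2 kit and sequenced in 20 libraries, 5 in each of 4 groups. The authors deposited estimated counts per Ensembl gene, made with Salmon 1.3.0 and summed per gene. The submitters' processing notes also name bcl2fastq 2.2.20 and the human build GRCh38, whereas the gene identifiers are those of mouse, so the build behind the counts is not given in the sources used here. Strand use in counting is not given there either.

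The estimated counts were rounded to whole numbers. Genes were tested with edgeR 4.0.16 in R 4.3.3 (quasi-likelihood, TMM scaling, low-count filter of 10 counts and 15 in total, Benjamini-Hochberg adjustment over all genes tested) on the 10 libraries compared, and called at an adjusted p under 0.05 and a log2 fold change beyond 1. Levels were divided by size factors of DESeq2 1.42.0. TPM used the median length of GENCODE M21 transcripts. The tests were checked on simulated data. Totals of 12960000 to 28080314 counts put 3 counts, the detection floor used, at 1.07e-05% to 2.31e-05% of a library, and this covers counting error only.

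The 10 genes and all lists were chosen with earlier results of these data known. All 10 are named. Of 44 other pathway genes listed, 43 were matched by symbol (Prxl2b under the older symbol Fam213b), and up to 3 per role and comparison are named, those with the largest called change and a mean of at least 10 in the higher group. Markers of 14 cell types are given as summed levels, untested. Promoter windows are those of RefSeq.

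CD45+ and CD45- libraries of 1 animal are paired by the number in their titles. The correlation of their deviations from the group means was 0.0245 to 0.124 in 66cl4 and -0.00142 to 0.303 in 67NR. Between tumours only a number is shared. Libraries of a group come from separate animals. Alternatives were DESeq2, RLE scaling, other count filters, a fit of all 20 libraries, a replicate block, the omission of 66cl4 animals 5 and 6, and the omission of each library in turn.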

Additional observations from a re-analysis of the deposited data

Results flagged for a closer look

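Among 44 groups of values examined, 4 held a library far from its fellows, where chance alone would give 2.2, at 1 in 20. Alox12 was 5.79 normalised counts in 66cl4 CD45+ animal 5 against 0 to 0.956 in the others, and 6.24 in 67NR CD45+ animal 1 against 0 to 1.10, levels at which a few reads decide the value. Alox15 was 7.90 in 67NR CD45- animal 1 against 1.02 to 3.0. The library of 67NR CD45- animal 7 totalled 16917109 counts against 21199064 to 22180348.

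Alox5ap moved in opposite directions between the tumours in the 2 gates. The log2 ratio of the 66cl4 mean to the 67NR mean was 0.87 in CD45+ cells and -1.09 in CD45- cells, a gap of 1.96, and the libraries did not overlap in either gate. The difference between the 2 effects was not tested.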

How the results depend on the processing

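No called result changed sign. Ptges between CD45+ cells, which was not called, went from -0.47 to 0.06 with the replicate block. Among the recomputed log2 fold changes of listed enzymes, 546 were labelled unchanged. Between CD45+ cells this meant a move of less than 1 SD of the logged levels, and in the other comparisons the same call. In those other comparisons 5 lost a call, all for Alox5 between CD45- cells. It was at -1.98 when no count filter was used, and the rest are given with its values above. Another 2 gained a call (Ptgs1 between CD45- cells). All 280 group levels on other scales or without 1 library moved by less than 1 SD. Of the counts of calls, 399 stayed within 1.5 times and 3 did not. The exceptions are counts over all genes: 3562 genes higher in 66cl4 CD45+ than CD45- cells became 5344 with DESeq2 and 5483 with no count filter, both of which test more genes, and 1001 genes lower in 66cl4 than 67NR CD45+ cells became 1525 with all 20 libraries in the fit. The cause of the last was not tested. With the replicate block, 5 enzymes passed the limits upwards and 3 downwards between the gates of 66cl4 and 6 and 2 in 67NR, as without it. These counts include Alox15 and, in 66cl4, Ptgis, whose gate values are a description. Between CD45- cells the block gave 4 and 4 in place of 4 and 3, through Ptgs1 at -1.03, and it changed no other call of a listed enzyme. Between CD45+ cells, 3 to 4 enzymes passed the limits upwards over all settings, against 3 in the main fit, and 1 downwards in every setting. Outside that comparison, settings that test lower counts took 2 more values past the limits. Ptgis passed as lower in 67NR CD45+ than CD45- cells in all 3 that fitted it, DESeq2 among them. That gate value is a description, since the study had selected Ptgis on CD45+ cells. Alox15 passed as higher in 66cl4 than 67NR CD45- cells in 1 of 3, DESeq2 (adjusted p = 0.0366), but not without a count filter (0.115). Depth limits Alox12 in all groups and Ptgis in 67NR.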
